A study of Mus musculus with 8 samples.

Results

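Plet1, Peg10, Vdr, Pou2f2, Cd69, Lipg and Ccn3 are 7 of the 15917 genes in a count table of cultured mouse blood eosinophils, and all 7 passed the filter on low counts. They were chosen by measured values: a very high level after a mixture of type 2 cytokines (E2) over IL-5 alone (E0), or a large difference between that response and the response to type 1 cytokines (E1) over no cytokine (CN). Their values in E2 against E0, in E1 against CN and in the difference of those responses are therefore given as a description, with no test. Eosinophils were taken from the blood of C57BL/6 mice. The protocol names them as the IL-5 transgenic line NJ.1638, which makes an excess of IL-5, yet WT is given as the genotype of all 4 groups. Cells carrying CD90 or B220 were removed with beads, purity above 97% was checked by cytospin, and the cells were cultured for 18 h. In 1 experiment, E2 cells received IL-5, GM-CSF and IL-4 at 10 ng/mL with IL-33 at 30 ng/mL, and E0 cells received IL-5 alone at 10 ng/mL. In the other, E1 cells received IFN-γ and TNF-α at 15 ng/mL and CN cells no cytokine. Each group has 2 libraries.

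Eosinophils are granulocytes that depend on IL-5 for their production and survival, and they gather in allergic and parasite-infected tissue. IL-5 and GM-CSF signal through a shared beta chain to STAT5, IL-4 signals through its receptor alpha chain to STAT6, and IL-33 binds ST2 and signals to NF-κB. The 7 genes belong to no single pathway. Vdr encodes the nuclear receptor for the active form of vitamin D. Pou2f2 encodes the octamer-binding factor Oct-2, best known from B cells. Plet1 is a GPI-anchored surface protein of the placenta and of epithelial progenitors, and Cd69 is an early activation lectin of leukocytes. Peg10 is an imprinted gene derived from a retrotransposon. Lipg is endothelial lipase, and Ccn3 is a matricellular protein.

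The libraries held 60809057 to 95065752 counts assigned to genes, so that 3 counts correspond to 0.0316 to 0.0493 CPM, that is counts scaled to library size. The 15 eosinophil markers were all detected, with a summed level of 7884 and 7842 in E2, 9504 and 9395 in E0, 9283 and 8169.6 in E1 and 10751 and 10171 in CN, in CPM. Of the 15, 4 rose and 8 fell in E2 against E0 (edgeR quasi-likelihood test, adjusted p below 0.05), with a median log2 fold change of -0.35, where 17.0% of all genes rose and 18.5% fell. Siglecf, a lectin of mouse eosinophils, was at 938 and 901 CPM in E2, 757 and 760.0 CPM in E0, 786 and 701 CPM in E1 and 1004.5 and 937 CPM in CN, and Ccr3, the eotaxin receptor, at 1191 and 1318 CPM in E2, 2590.2 and 2561 CPM in E0, 2083 and 1977 CPM in E1 and 2058 and 2097 CPM in CN. In each group, replicate 2 had Xist at 796 to 1142 CPM and replicate 1 at 0.0527 to 0.193 CPM, while the Y-linked gene Ddx3y was at 62.5 to 95.6 CPM in replicate 1 and at 0 counts in replicate 2. The spread between replicates of a group therefore includes the difference between the sexes. Where 1 library is left out below, its group keeps 1 library of 1 sex, so sex and cytokine are then partly mixed. E2 and E0 were cultured in another experiment than E1 and CN, so between those pairs the cytokine and the experiment cannot be told apart. In such bulk RNA a larger share of expressing cells and more RNA per cell also cannot be told apart.

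All 7 genes were highest in E2, and both E2 libraries lay above both E0 libraries for each, a separation also found upwards for 35.9% of all genes tested. The log2 fold changes of E2 over E0 were 3.32 to 7.57 with a median of 5.41, beside a median of -0.02 over all 15913 genes tested. In E1 against CN the genes went different ways. Vdr and Cd69 were higher in both E1 libraries (26.5% of all genes separated upwards), Plet1, Peg10, Lipg and Ccn3 were lower in both (27.5% separated downwards), and the libraries of Pou2f2 overlapped. The log2 fold changes of E1 over CN lay between -2.92 and 2.70 with a median of -0.73, beside -0.01 over all genes. The difference between the responses, on the log2 scale, was 3.69 to 8.30 with a median of 6.24.

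A high level in E2 over E0, or a large difference between the responses, follows from how the genes were chosen. E2 being the highest of the groups is linked to that choice but not fixed by it. The level without E2, which bears on their description as switched on mainly by type 2 cytokines, differed among them. Plet1, Peg10 and Pou2f2 were low in E0, E1 and CN alike. Vdr and Cd69 were also higher in E1 than in CN. Lipg and Ccn3 were already abundant in CN, without added cytokine, and lower in E1; they were also lower in E0, which comes from the other experiment.

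**Figure D1:**
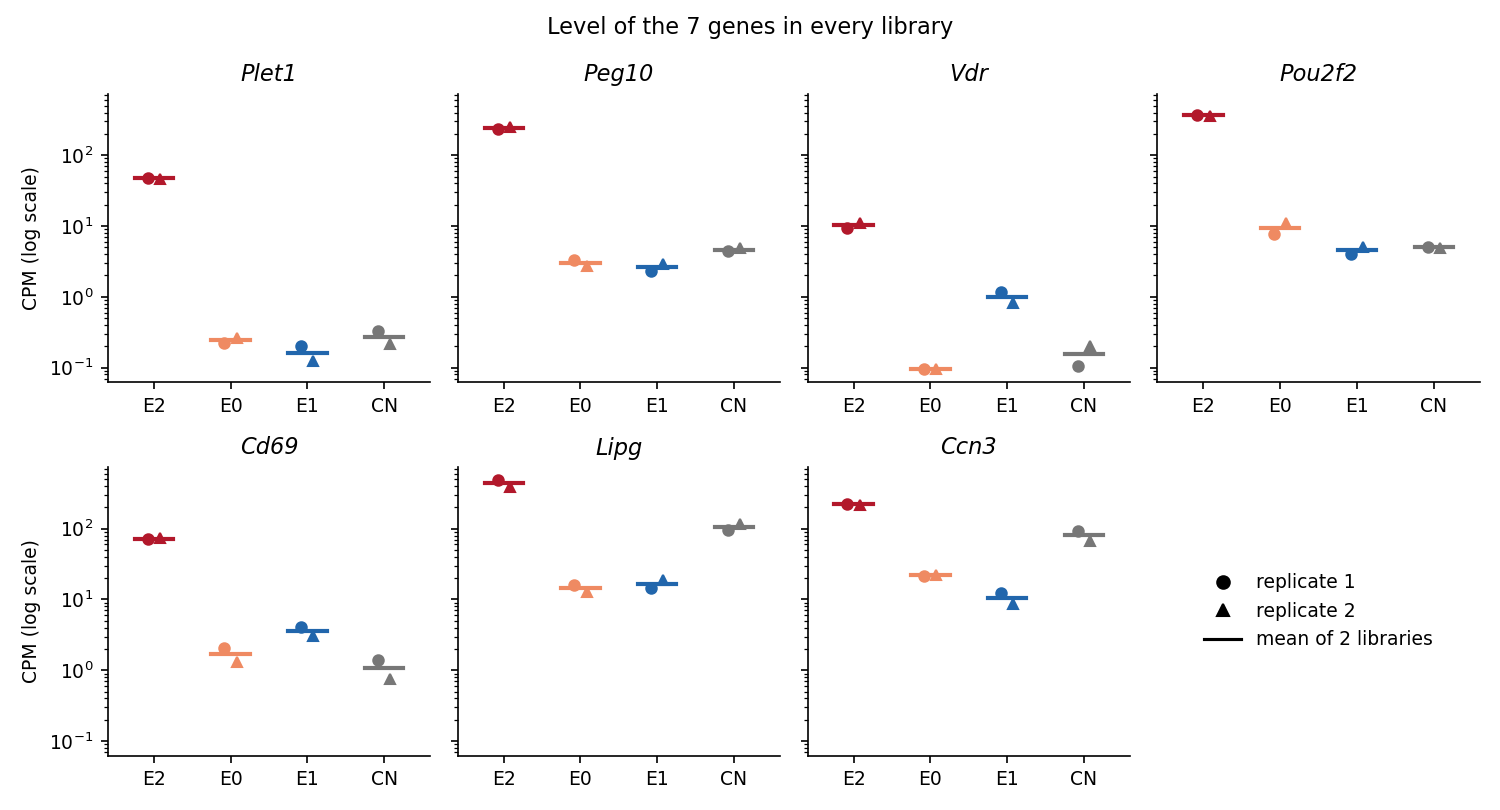
Level of each of the 7 genes in CPM on a log axis, by group (E2, E0, E1, CN); points are libraries, with circles for replicate 1 and triangles for replicate 2, and lines are the mean of 2 libraries. E2 is highest in every panel, and CN is the second highest for Lipg (95.6 and 116 CPM) and Ccn3 (93.8 and 67.5 CPM).

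**Figure D2:**
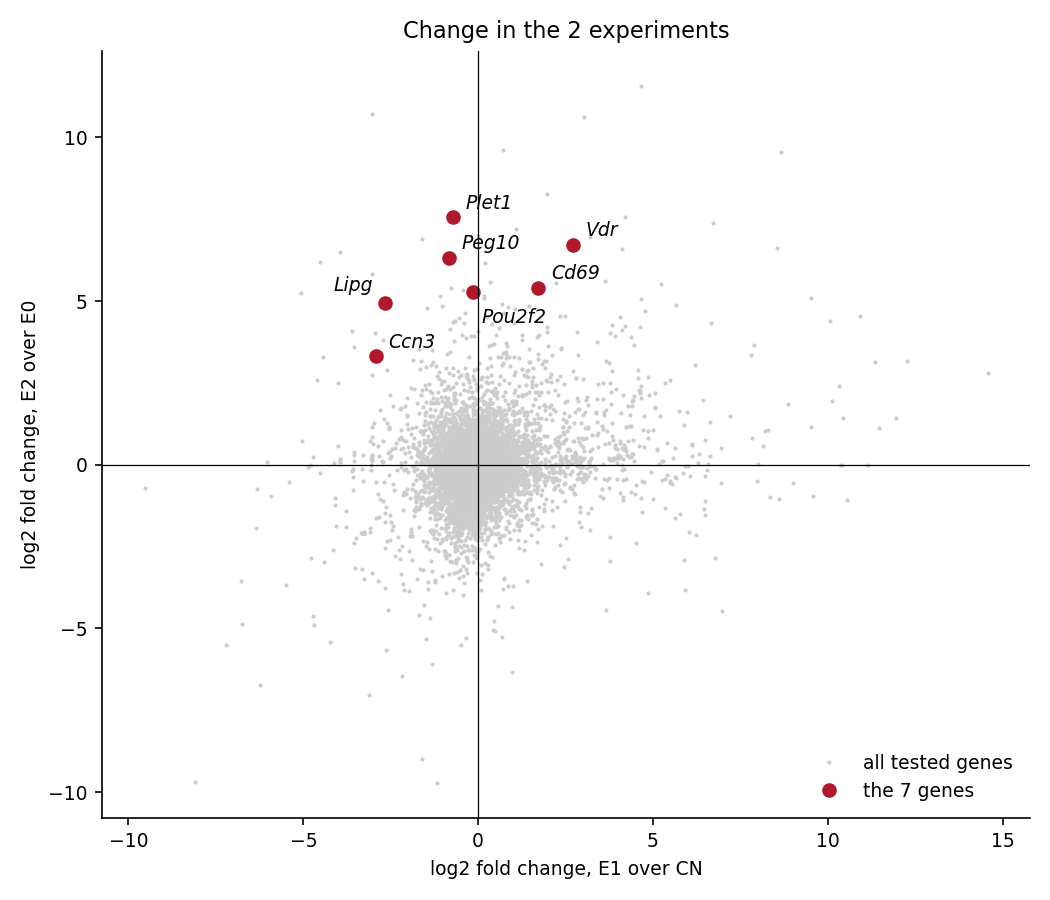
log2 fold change of E1 over CN (x axis) against that of E2 over E0 (y axis) for all tested genes in grey and the 7 genes in red. Vdr (2.70) and Cd69 (1.72) lie right of zero on the x axis, Pou2f2 (-0.15) close to it, and Lipg (-2.66) and Ccn3 (-2.92) far left.

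Among the transcription factors, Vdr (ENSMUSG00000022479, chr15:97854425-97910630, minus strand, GRCm38) was the gene closest to absence without E2. Vdr had 9.49 and 11.0 CPM in E2, 0.0966 and 0.0955 CPM in E0, 1.18 and 0.818 CPM in E1 and 0.105 and 0.204 CPM in CN. The E0 libraries held only 6 and 8 reads of it and the CN libraries 10 and 17. Both E2 libraries stood far above all others, the E1 libraries lay above CN without overlap, and E0 was lowest. On the log2 scale the fold change was 6.72 ± 0.35 (SE) for E2 over E0 and 2.70 ± 0.33 for E1 over CN, ranks 14 and 318 of 15913 genes, and the difference of the responses was 4.02 ± 0.51. On a scale per length, Vdr had 1.82 RPKM (CPM per kilobase of exon) in E2, higher than 33.9% of genes in those libraries, and 0.017 RPKM in E0, higher than 0.254%. It was the lowest of the 7 genes in E2 on that scale. The upstream region of the RefSeq transcript is shown because a match to the STAT6 palindrome falls in it, with capitals marking matches to the motifs searched (RefSeq, GRCm38.p6, chr15:97908247-97908546, minus strand, 250 bases before the start to 50 after):
Vdr: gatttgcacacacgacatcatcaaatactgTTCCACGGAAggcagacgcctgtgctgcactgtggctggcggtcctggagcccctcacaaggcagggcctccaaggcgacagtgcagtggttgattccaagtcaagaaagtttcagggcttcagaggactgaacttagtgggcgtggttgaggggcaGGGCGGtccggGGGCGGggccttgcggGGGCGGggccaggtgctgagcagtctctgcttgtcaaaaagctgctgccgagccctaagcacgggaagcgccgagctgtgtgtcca
The first capital run, TTCCACGGAA, is a match to TTCNNNNGAA, the palindrome that STAT6 is known to bind, 220 to 211 bases upstream of the start. The 3 others are GC boxes, GGGCGG, within 63 bases upstream. TTCNNNNGAA occurs in 6.95% and GGGCGG in 35.7% of 32851 promoters of that length, on either strand. The RefSeq start lies inside the annotated extent of Vdr, so annotated transcripts also begin elsewhere.

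Most partners of the vitamin D receptor that passed the test were lower in E2. Of 12 measured genes of vitamin D metabolism and VDR partnership (of 16 listed), 1 rose and 5 fell in E2 against E0 (edgeR quasi-likelihood test, adjusted p below 0.05), with a median log2 fold change of -0.25; over all genes tested 17.0% rose and 18.5% fell. Rxra, the retinoid X receptor with which VDR binds DNA as a heterodimer, was at 220.0 and 203 CPM in E2 against 341 and 328 CPM in E0. Both E2 libraries were lower, and Rxra fell by 0.66 ± 0.07 on the log2 scale (edgeR adjusted p = 0.000314). Rxrb, its paralog, fell by 1.00 ± 0.12 (adjusted p = 0.000427), and Cyp27a1, a sterol hydroxylase that can hydroxylate vitamin D, fell by 2.30 ± 0.45 (adjusted p = 0.00554). Pdia3, a protein disulfide isomerase also described as a membrane binder of vitamin D, rose by 0.31 ± 0.07 (adjusted p = 0.0133), a call lost on leaving out any 1 of the E2 or E0 libraries (adjusted p = 0.0562 to 0.0812). Cyp27b1 and Cyp24a1, which make and break down the active hormone, were not analysed here. In E1 against CN, 2 of the 12 rose and 2 fell, with a median of 0.02, where 9.19% of all genes rose and 8.08% fell.

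Of 8 measured genes known as VDR targets (of 18 listed), 3 rose and 3 fell in E2 against E0, with a median of -0.45. In E1 against CN, 1 rose and 2 fell, with a median of -0.06. The shares over all genes tested were 17.0% up and 18.5% down in E2, and 9.19% and 8.08% in E1. Cdkn1a, the cell cycle inhibitor p21, was at 129 and 140.0 CPM in E2 against 38.5 and 39.7 CPM in E0, with no overlap, and rose by 1.78 ± 0.07 (edgeR adjusted p = 1.57e-06); its log2 fold change in E1 over CN was -0.35 ± 0.06. Cd14, the co-receptor for lipopolysaccharide, rose by 1.00 ± 0.20 (adjusted p = 0.0063), and Thbd, the thrombin receptor thrombomodulin, fell by 2.63 ± 0.29 (adjusted p = 0.000351). Cd14 rose more in E1 over CN, by 2.35 to 2.54 across the alternative fits, and its difference of responses was -1.71 to -1.09. Thbd was at -2.33 to -1.70 in E1 over CN. Spp1 (osteopontin), at 0.92 ± 0.29, lost its call without E0 replicate 1 (adjusted p = 0.203), E2 replicate 1 (0.215) or E2 replicate 2 (0.066). Klf4, a zinc-finger factor, at -1.41 ± 0.32, lost it without E0 replicate 2 (0.053) or E2 replicate 2 (0.0742), and Lrp5, a Wnt co-receptor, at -0.95 ± 0.23, without E0 replicate 2 (0.0781), E2 replicate 1 (0.0814) or E2 replicate 2 (0.0553).

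Pou2f2 (ENSMUSG00000008496, chr7:25087344-25179726, minus strand) was among the more abundant of the 7 in E2. Pou2f2 had 372 and 362 CPM in E2, 7.71 and 10.9 CPM in E0, 4.08 and 5.06 CPM in E1 and 5.13 and 4.97 CPM in CN. Both E2 libraries were high, E0 lay above E1 and CN, and the E1 and CN libraries overlapped. Its log2 fold change was 5.29 ± 0.17 for E2 over E0 (rank 30), -0.15 ± 0.16 for E1 over CN and 5.44 ± 0.23 for their difference. It had 44.5 RPKM in E2, higher than 93.0% of genes, and 1.13 RPKM in E0. The region at its RefSeq start is shown for comparison with Vdr (RefSeq, GRCm38.p6, chr7:25132411-25132710, minus strand); the capitals mark 2 GC boxes, 105 to 100 and 40 to 35 bases upstream:
Pou2f2: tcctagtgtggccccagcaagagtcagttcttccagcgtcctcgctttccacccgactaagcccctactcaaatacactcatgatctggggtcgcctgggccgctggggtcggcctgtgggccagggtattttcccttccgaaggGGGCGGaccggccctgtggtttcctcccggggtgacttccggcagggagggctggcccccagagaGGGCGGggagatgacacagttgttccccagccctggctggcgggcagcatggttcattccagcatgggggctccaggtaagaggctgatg
Neither the octamer ATGCAAAT nor TTCNNNNGAA, TTCNNNGAA, GGGANNTTCC, TATAAA or CACGTG is in this window on either strand. As for Vdr, the RefSeq start lies within the annotated gene.

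Of the octamer factors and coactivators (9 listed besides Pou2f2), 4 were measured. Among these, 1 rose and 1 fell in E2 against E0, with a median of -0.02 (all genes tested: 17.0% and 18.5%). Pou2af1, the coactivator that binds Oct-2 on the octamer in B cells, was at 5.48 and 5.54 CPM in E2, 1.67 and 1.66 CPM in E0, 0.896 and 0.695 CPM in E1 and 0.738 and 0.817 CPM in CN. Both E2 libraries were above all others, and it rose by 1.72 ± 0.19 over E0 (edgeR adjusted p = 0.000341), with a difference of responses of 1.69 ± 0.28 (adjusted p = 0.00313). Pou2f1, the broadly expressed paralog Oct-1, was at 50.2 and 46.3 CPM in E2 against 48.1 and 46.1 CPM in E0, which overlapped, and its log2 fold change of 0.04 ± 0.10 did not pass the test (adjusted p = 0.809). Pou6f1, another POU factor, fell by 1.11 ± 0.15 (adjusted p = 0.00103).

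Since Pou2f2 marks B cells, 18 measured B cell and plasma cell markers (of 20) were read beside it. Their summed CPM was 944 and 959 in E2, 687 and 695 in E0, 707 and 650.0 in E1 and 1131 and 1125.5 in CN. Every gene in the table has at least 59 reads in total, so none of them could be at 0 in all libraries. In E2 against E0, 4 of the 18 rose and 2 fell, where 17.0% of all genes tested rose and 18.5% fell. In E2 most of the sum came from Xbp1, a factor of plasma cells that eosinophils also need, with 607 CPM in E2 and 223 in E0. Among defining markers, Pax5 was at a mean of 0.395 CPM in E2 and 0.373 in E0, and Cd79a was at 18.3 and 20.9. Ms4a1 (CD20) averaged 7.23 CPM in E2 and 3.46 in E0, while the immunoglobulin gene Ighm averaged 111 CPM in E2 and 234 in E0. The part of B cells in the Pou2f2 and Pou2af1 values was not tested.

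Of the surface proteins, Plet1 (ENSMUSG00000032068, chr9:50494525-50505482, plus strand) had the largest E2 over E0 fold of the 7. Plet1 had 48.3 and 46.1 CPM in E2, 0.225 and 0.263 CPM in E0, 0.203 and 0.123 CPM in E1 and 0.327 and 0.216 CPM in CN. The E2 libraries held 4116 and 3587 reads and the E0 libraries 14 and 22. Only E2 was high. CN and E0 overlapped, and both E1 libraries were below both CN libraries, on only 17 and 9 reads in E1 and 31 and 18 in CN. The log2 fold change was 7.57 ± 0.22 for E2 over E0 (191-fold, rank 7 of all genes), -0.73 ± 0.29 for E1 over CN and 8.30 ± 0.37 for the difference. On the RPKM scale it had 24.2 RPKM in E2, higher than 86.3% of genes, and 0.125 RPKM in E0, higher than 4.27%. Its promoter is printed because its start matches that of the annotated gene, and because it holds an octamer, the motif of the factor encoded by Pou2f2 (RefSeq, GRCm38.p6, chr9:50494275-50494574, plus strand):
Plet1: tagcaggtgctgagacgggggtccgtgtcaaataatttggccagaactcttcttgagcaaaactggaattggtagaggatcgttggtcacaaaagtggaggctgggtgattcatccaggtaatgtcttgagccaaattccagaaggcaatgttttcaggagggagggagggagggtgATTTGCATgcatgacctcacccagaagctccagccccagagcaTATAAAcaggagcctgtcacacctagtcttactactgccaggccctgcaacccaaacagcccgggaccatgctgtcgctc
The first capital run, ATTTGCAT, is the octamer ATGCAAAT read on the other strand, 73 to 66 bases upstream of the start, and the second is a TATA box, TATAAA, 30 to 25 bases upstream. The octamer occurs in 1.74% of promoters of this length and TATAAA in 13.6%. These matches are letters in a window and show no binding.

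Plet1os, an antisense transcript annotated over Plet1, was also highest in E2, with 18.1 and 16.3 CPM in E2, 0.241 and 0.239 CPM in E0, 0.358 and 0.123 CPM in E1 and 0.253 and 0.168 CPM in CN. The E2 and E0 libraries did not overlap, and it rose by 6.15 ± 0.38 (edgeR adjusted p = 2.03e-05); in E1 over CN the log2 fold change was 0.21 ± 0.44 (adjusted p = 0.806). The strand setting of the counting is not given in the sources used here, so reads from Plet1 and Plet1os cannot be told apart. Among 20 measured GPI-anchored and Ly6-type surface proteins (of 25), the class of Plet1, 10 rose and 3 fell in E2 against E0, with a median of 0.32, and 11 rose and 2 fell in E1 against CN, with a median of 1.03. Among all genes tested, 17.0% rose and 18.5% fell in E2 against E0, and 9.19% rose and 8.08% fell in E1 against CN. Cd55, a complement regulator, rose by 2.10 ± 0.11 in E2 (edgeR adjusted p = 1.08e-05), and Ly6e by 1.83 ± 0.11 (adjusted p = 1.41e-05). Both also rose in E1 over CN, Cd55 by 1.04 to 1.41 and Ly6e by 1.74 to 2.0 across the alternative fits. Thy1 (CD90), the protein used to remove T cells and innate lymphoid cells, was at 1.84 and 1.86 CPM in E2 against 0.322 and 0.346 CPM in E0 and rose by 2.46 ± 0.34 (adjusted p = 0.00109). Ly6g, a neutrophil marker, fell by 1.99 ± 0.13 (adjusted p = 2.75e-05), and Ly6c1 and Ly6c2, near-identical monocyte markers whose reads the counting could split, fell by 1.64 (adjusted p = 0.00244) and 1.32 (adjusted p = 0.00118). In E1 over CN they rose instead, Ly6g by 3.12 to 3.26, Ly6c1 by 5.37 to 5.87 and Ly6c2 by 5.24 to 5.43.

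Cd69 (ENSMUSG00000030156, chr6:129267325-129275436, minus strand) encodes a lectin that appears soon after leukocyte activation and holds the S1P receptor S1PR1 inside the cell. Cd69 had 70.7 and 73.3 CPM in E2, 2.09 and 1.32 CPM in E0, 4.13 and 3.05 CPM in E1 and 1.4 and 0.757 CPM in CN. E2 was far above the rest, E1 lay above CN and E0 without overlap, and E0 and CN overlapped. The log2 fold change was 5.41 ± 0.31 for E2 over E0 (rank 28), 1.72 ± 0.29 for E1 over CN (rank 514) and 3.69 ± 0.41 for the difference. Per exon length it had 11.1 RPKM in E2, higher than 72.2% of genes, and 0.262 RPKM in E0.

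Most early activation antigens other than Cd69 rose in each experiment. Of 21 measured (of 22), 13 rose and 2 fell in E2 against E0 with a median of 1.12, and 12 rose and 2 fell in E1 against CN with a median of 1.37. The shares of all genes tested were 17.0% up and 18.5% down in E2, and 9.19% and 8.08% in E1. In the difference of the responses 5 were higher and 7 lower, beside 11.3% and 14.0% of all genes. Tnfrsf9, the costimulatory receptor 4-1BB, was at 4.03 and 5.32 CPM in E2, 0.113 and 0.251 CPM in E0, 0.43 and 0.518 CPM in E1 and 0.306 and 0.252 CPM in CN. It rose by 4.63 ± 0.36 in E2 over E0 (edgeR adjusted p = 6.08e-05). The immediate early factors Egr2 and Egr3 rose by 2.67 ± 0.19 (adjusted p = 3.3e-05) and 2.59 ± 0.36 (adjusted p = 0.00111). The hyaluronan receptor Cd44 fell by 0.64 ± 0.08 (adjusted p = 0.000457).

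In the egress system that Cd69 acts on, 5 of 17 measured genes rose and 5 fell in E2 against E0 (median 0.01). None rose and 2 fell in E1 against CN (median -0.19). Over all genes tested, 17.0% rose and 18.5% fell in E2, and 9.19% rose and 8.08% fell in E1. S1pr1, the receptor by which lymphocytes leave tissue, was at 7.76 and 12.5 CPM in E2, 18.8 and 28.9 CPM in E0, 8.62 and 9.98 CPM in E1 and 19.5 and 24.2 CPM in CN. Both cytokine mixtures were below their controls without overlap. S1pr1 fell by 1.24 ± 0.26 in E2 (edgeR adjusted p = 0.00764, 0.0511 without E2 replicate 1) and by 1.23 ± 0.26 in E1 (adjusted p = 0.0135, 0.0616 without CN replicate 2 and 0.0793 without E1 replicate 1). S1pr3, another S1P receptor, had 359 reads in E2 and 2 in E0, a ratio of 161 (95% exact binomial counting interval 44.2 to 1332.0). Sphk1, a kinase that makes S1P, rose by 2.22 ± 0.33 (adjusted p = 0.00155), and the lectin Lgals1, described as a CD69 ligand, rose by 1.88 ± 0.21 (adjusted p = 0.000365). Klf2, the factor that drives S1pr1 in T cells, rose by 0.92 ± 0.13 (adjusted p = 0.00111). S1pr5 fell by 2.21 ± 0.36 (adjusted p = 0.00238), and Myl12b, a myosin light chain described as a CD69 ligand, by 0.51 ± 0.08 (adjusted p = 0.00252).

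Cd69 sits among lectin genes on chromosome 6, the natural killer gene complex. Of 24 measured lectins of that cluster (of 28), 5 rose and 4 fell in E2 against E0 with a median of -0.16. In E1 against CN, 4 rose and 3 fell with a median of -0.35. All genes tested rose in 17.0% and fell in 18.5% of cases in E2, and 9.19% and 8.08% in E1. Olr1, the receptor for oxidised LDL, was at 251 and 259 CPM in E2 against 69.3 and 71.3 CPM in E0, without overlap, and rose by 1.86 ± 0.21 (edgeR adjusted p = 0.000389). Clec4n (Dectin-2), a fungal receptor, rose by 1.87 ± 0.31 (adjusted p = 0.00251) and Klrb1f by 1.45 ± 0.29 (adjusted p = 0.00608). Clec4n rose more in E1 over CN, by 3.46 to 4.31 across the alternative fits, where Klrb1f was at -1.46 to -0.58. Clec2e fell by 5.29 ± 0.51 (adjusted p = 0.000179), Clec4a1 by 1.91 (adjusted p = 0.00181) and Klrd1 by 1.47 (adjusted p = 0.0033). Clec2d, a ligand of natural killer receptors, had 73.2 and 88.7 CPM in E2 against 72.3 and 81.3 CPM in E0, and its log2 fold change of 0.08 ± 0.19 did not pass (adjusted p = 0.785).

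Lymphocytes also carry CD69, and dendritic cells carry PLET1. The 14 measured natural killer and innate lymphoid markers (of 17) summed to 75.6 and 77.9 in E2, 44.8 and 48.3 in E0, 24.2 and 20.6 in E1 and 27.0 and 21.1 in CN, in CPM; 6 rose and 1 fell in E2 against E0. The protease gene Gzmb was at 10.4 and 9.89 CPM in E2 against 0.322 and 0.68 CPM in E0, and the receptor gene Ncr1 at 1.47 and 1.65 CPM in E2 against 1.4 and 1.87 CPM in E0. The 11 measured T cell markers (of 17) summed to 24.9 and 23.6 in E2, 26.2 and 23.7 in E0, 20.8 and 22.8 in E1 and 22.8 and 23.0 in CN, with 1 higher and 2 lower, and Cd3d at 2.65 and 1.99 CPM in E2 against 3.2 and 2.18 CPM in E0. The 23 monocyte, macrophage and dendritic cell markers measured (of 24) summed to 1216 and 1201 in E2 and 1219.5 and 1568 in E0. Their sum was 5655 and 5203 in E1 and 1208 and 963 in CN. Of the 23, 7 were higher and 12 lower in E2 against E0. Ly6c2 reached the highest level of this list and rose by 5.24 to 5.43 in E1 over CN across the alternative fits. The dendritic cell factor Zbtb46 averaged 4.12 CPM in E2 and 2.37 in E0. The 10 basophil and mast cell markers measured (of 14) summed to 167 and 130.0 in E2, 95.8 and 90.0 in E0, 145 and 139 in E1 and 112 and 120.0 in CN, with 5 higher and none lower, and the 15 neutrophil markers (of 16) to 1381 and 1832 in E2, 3465.5 and 4274 in E0, 2605 and 1961 in E1 and 4039 and 3508 in CN, with none higher and 6 lower. Every gene in the table has at least 59 reads in total, so no measured marker could be at 0 in all libraries. Over all genes tested, 17.0% rose and 18.5% fell in E2 against E0. The part of such cells in the levels of Cd69 and Plet1 was not tested.

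Peg10 (ENSMUSG00000092035, chr6:4747306-4760517, plus strand), expressed from the paternal copy and needed for placenta formation, keeps a viral-type gag and protease reading frame from its retrotransposon origin. Peg10 had 233 and 248 CPM in E2, 3.35 and 2.71 CPM in E0, 2.31 and 2.89 CPM in E1 and 4.38 and 4.9 CPM in CN. Both E2 libraries were high and the others low, with CN above E0 and E1, which overlapped. The log2 fold change was 6.32 ± 0.15 for E2 over E0 (rank 18), -0.84 ± 0.14 for E1 over CN and 7.16 ± 0.20 for the difference. Its RPKM was 36.1 in E2, higher than 91.2% of genes, and 0.454 in E0, higher than 14.5%.

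Sgce, encoding epsilon-sarcoglycan, is the imprinted neighbour of Peg10, starting 99 bases away on the opposite strand. It was at 9.44 and 10.1 CPM in E2, 0.451 and 0.8 CPM in E0, 0.454 and 0.573 CPM in E1 and 0.601 and 0.817 CPM in CN. As for Peg10, both E2 libraries were far above the 6 others. Sgce rose by 3.95 ± 0.29 in E2 over E0 (edgeR adjusted p = 4.55e-05), its log2 fold change in E1 over CN was -0.47 ± 0.30 (adjusted p = 0.355), and the difference of responses was 4.41 ± 0.41 (adjusted p = 0.000181). Per exon length Sgce had 0.923 RPKM in E2, against 36.1 RPKM for Peg10 in the same libraries. Casd1, from the same imprinted cluster, was at 88.2 and 94.9 CPM in E2 against 74.7 and 75.3 CPM in E0 and rose by 0.29 ± 0.07 (adjusted p = 0.015, 0.0765 without E0 replicate 1, 0.0714 without E0 replicate 2 and 0.121 without E2 replicate 2). Asb4, the remaining measured gene of the cluster, averaged 0.348 ± 0.0381 CPM in E2 and 0.307 ± 0.139 CPM in E0 (log2 fold change 0.15 ± 0.48, adjusted p = 0.828); Casd1 and Asb4 were chosen after their values were seen.

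Most other imprinted genes, like most genes tested, did not pass the test. Of 24 measured (of 47, Peg10 left out), 5 rose, 2 fell and 17 were not called in E2 against E0 with a median of 0.16. In E1 against CN none rose and 3 fell, with a median of -0.21. Over all genes tested, 17.0% rose and 18.5% fell in E2 against E0, and 9.19% rose and 8.08% fell in E1 against CN. Cd81, a tetraspanin, rose by 1.10 ± 0.08 (edgeR adjusted p = 3.74e-05) and Zrsr1, a splicing factor, fell by 0.84 ± 0.12 (adjusted p = 0.00146). Nap1l4, a histone chaperone, at 0.40 ± 0.08, lost its call without E2 replicate 2 (adjusted p = 0.0517), and Inpp5f, a phosphatase, at -0.31 ± 0.09, without any 1 of the E2 and E0 libraries (0.0965 to 0.147). Of 9 other measured genes with a domesticated retrotransposon gag (of 19), 2 rose and none fell in E2, with a median of 0.64. Arc, a neuronal gag protein, rose in both experiments, by 2.30 ± 0.52 in E2 over E0 (adjusted p = 0.0105, 0.0681 without E0 replicate 2 and 0.077 without E2 replicate 2) and by 3.95 ± 0.70 in E1 over CN (adjusted p = 0.00535), at a mean of 0.703 CPM in E2; it was named after its values were seen. Moap1, at 0.64 ± 0.17, lost its call without any 1 of the E2 and E0 libraries (0.0707 to 0.113).

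Lipg (ENSMUSG00000053846, chr18:74939322-74961263, minus strand) encodes a secreted phospholipase that acts on high-density lipoprotein. Lipg had 485 and 394 CPM in E2, 15.8 and 12.9 CPM in E0, 14.5 and 19 CPM in E1 and 95.6 and 116 CPM in CN. E2 was highest, CN came next with both libraries above all E1 and E0 libraries, and E1 and E0 overlapped. On the log2 scale the change was 4.94 ± 0.19 for E2 over E0 (rank 37) and -2.66 ± 0.18 for E1 over CN, 6.34-fold lower, so that the difference of the responses, 7.60 ± 0.26, draws on both. Mean CPM was 4.15 times higher in E2 than in CN, and 7.4 times higher in CN than in E0. With 93.3 RPKM in E2, higher than 97.1% of genes, Lipg was the most abundant of the 7 per exon length; it had 22.5 RPKM in CN (85.1%) and 3.04 RPKM in E0 (43.7%).

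Of 19 measured lipases and lipoprotein genes (of 30), 7 rose and 6 fell in E2 against E0 with a median of 0.04. In E1 against CN, 4 rose and 3 fell with a median of -0.09. The shares over all genes tested were 17.0% up and 18.5% down in E2, and 9.19% and 8.08% in E1. Lpl, lipoprotein lipase and a paralog of Lipg, was at 62.9 and 66.7 CPM in E2, 5.36 and 8.06 CPM in E0, 2.5 and 1.87 CPM in E1 and 1.22 and 0.721 CPM in CN. E2 was highest, as for Lipg, but CN was lowest. Lpl rose by 3.27 ± 0.25 in E2 over E0 (edgeR adjusted p = 5.36e-05), with a difference of responses of 2.11 ± 0.37 (adjusted p = 0.00444). In E1 over CN it rose by 1.16 ± 0.28 (edgeR adjusted p = 0.0255). That call was lost with limma-voom (adjusted p = 0.0636) and with the 4 libraries of the comparison alone (edgeR adjusted p = 0.0778). It was also lost without CN replicate 2 (log2 fold change 0.84), E1 replicate 1 (0.93) or E2 replicate 1 (1.16). Furin, a proprotein convertase that cleaves endothelial lipase, was at 1847 and 1624 CPM in E2 against 822 and 788 CPM in E0 and rose by 1.11 ± 0.10 (adjusted p = 0.000104). Abca1, a cholesterol exporter, at 0.99 ± 0.28, lost its call without E0 replicate 1 (0.143) or E2 replicate 1 (0.173). Apoe, an apolipoprotein, was at 2.13 and 2.65 CPM in E2 against 71.9 and 133 CPM in E0 and fell by 5.42 ± 0.38 (adjusted p = 3.41e-05). The phospholipid transfer protein gene Pltp and the clearance receptor gene Lrp1 fell by 1.88 (adjusted p = 9.9e-05) and 1.85 (adjusted p = 0.00183). Gpihbp1 and Angptl4 were not analysed here.

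Endothelial cells are the classical source of Lipg. The 6 measured endothelial and stromal markers (of 16) summed to 318 and 304 in E2, 233 and 219 in E0, 167 and 164 in E1 and 179 and 183 in CN, in CPM, with 2 higher and 1 lower in E2 against E0. Almost all of it was Pecam1, an adhesion molecule that leukocytes also carry, at 298 CPM in E2 and 209 in E0. The defining endothelial genes Vwf and Kdr were at or below 0.816 CPM on average in those groups, with Vwf at 0.715 in E2 and Kdr at 0.0609 in E2 and 0.068 in E0. For the marker counts, the shares over all genes tested were 17.0% higher and 18.5% lower. The part of endothelial cells in the Lipg values was not tested.

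Ccn3 (ENSMUSG00000037362, chr15:54745702-54754039, plus strand), also called Nov, encodes a secreted protein that binds integrins and Notch. Ccn3 had 226 and 216 CPM in E2, 21.7 and 22.5 CPM in E0, 12.5 and 8.74 CPM in E1 and 93.8 and 67.5 CPM in CN. As for Lipg, E2 was highest and CN second, here with E0 above E1 and no overlap between any pair of groups. The log2 fold change was 3.32 ± 0.19 for E2 over E0 (9.99-fold, rank 112), the smallest of the 7, and -2.92 ± 0.19 for E1 over CN (7.59-fold lower), with a difference of 6.24 ± 0.27. Mean CPM was 2.74 times higher in E2 than in CN and 3.65 times higher in CN than in E0. Ccn3 had 77.0 RPKM in E2, higher than 96.3% of genes, 28.1 RPKM in CN (88.2%) and 7.7 RPKM in E0 (64.3%).

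No other CCN gene was analysed here. Of 16 measured integrin subunits and Notch pathway genes (of 25 on the list), 4 rose and 6 fell in E2 against E0 (median -0.13). In E1 against CN, 2 rose and 4 fell (median -0.11). Over all genes tested, 17.0% rose and 18.5% fell in E2, and 9.19% rose and 8.08% fell in E1. Itga5, the alpha chain of the fibronectin receptor, was at 51.4 and 47.2 CPM in E2 against 7.85 and 9.45 CPM in E0 and rose by 2.51 ± 0.12 (edgeR adjusted p = 5.43e-06). Itgb5, a vitronectin receptor chain, fell by 3.48 ± 0.47 (adjusted p = 0.000942), and the Notch ligand gene Jag1 by 3.12 ± 0.42 (adjusted p = 0.000875). Notch1 was at 629 and 624 CPM in E2 against 1099 and 961 CPM in E0 and fell by 0.72 ± 0.10 (adjusted p = 0.000922). Hes1, a Notch target, at 1.07 ± 0.24, lost its call without E0 replicate 1 (0.058) or E2 replicate 2 (0.0731). Jag2, another ligand, at 0.99 ± 0.31, lost it when any 1 of 5 libraries was left out (0.0501 to 0.181).

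**Figure D3:**
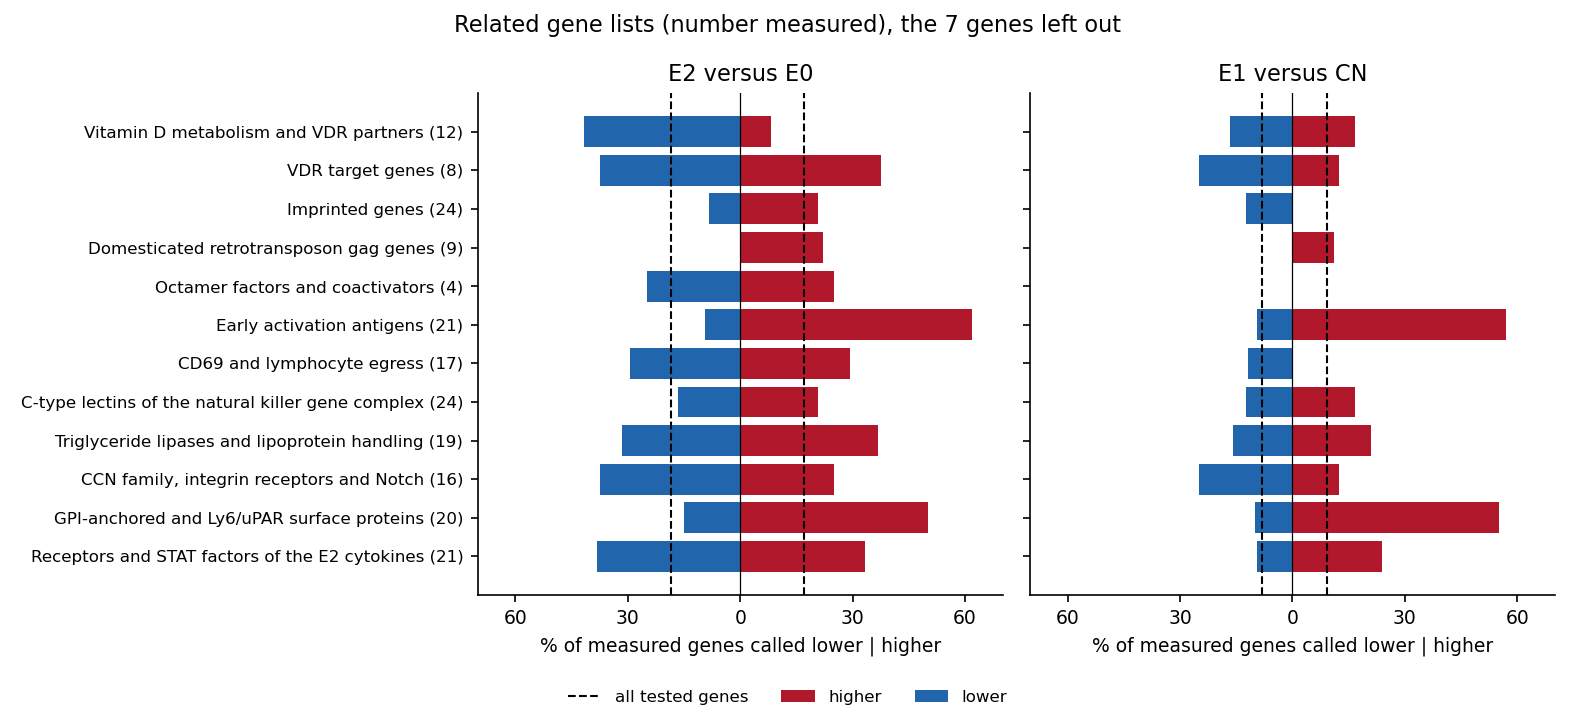
Share of the measured genes of each related list (number measured in brackets) that were called higher or lower by edgeR at an adjusted p below 0.05, for E2 versus E0 (left) and E1 versus CN (right), with the 7 genes left out; dashed lines are the shares over all tested genes. The early activation antigens reach 61.9% higher in E2 and 57.1% in E1, and the imprinted genes 20.8% in E2.

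The receptors for the E2 cytokines and their STAT factors moved both ways. Of 21 measured (of 22), 7 rose and 8 fell in E2 against E0 with a median of 0.00. In E1 against CN, 5 rose and 2 fell with a median of 0.07. Among all genes tested, 17.0% rose and 18.5% fell in E2, and 9.19% rose and 8.08% fell in E1. Il4ra, the IL-4 receptor alpha chain, was at 303 and 292 CPM in E2, 84.3 and 99.7 CPM in E0, 154 and 166 CPM in E1 and 169 and 184 CPM in CN. E2 was highest and E0 lowest; Il4ra rose by 1.69 ± 0.09 in E2 over E0 (edgeR adjusted p = 1.12e-05). Il2rg, the common gamma chain of the IL-4 receptor, rose by 2.66 ± 0.10 (adjusted p = 1.65e-06), Il1rl1, which encodes ST2, by 0.51 ± 0.09 (adjusted p = 0.00283), and its partner Il1rap by 0.66 ± 0.10 (adjusted p = 0.00152). Il2rg rose as well in E1 over CN, by 2.69 to 2.97 across the alternative fits, with a difference of responses of -0.3 to -0.02. There Il1rl1 was at -0.6 to -0.39 and Il1rap at -0.66 to -0.49. Csf2rb, the shared beta chain, fell by 0.44 ± 0.09 (adjusted p = 0.00564, 0.0531 without E0 replicate 1), and Il5ra by 0.35 ± 0.08 (adjusted p = 0.0131, 0.0894 without E0 replicate 1 and 0.106 without E2 replicate 2). Il13ra1, a chain of the IL-13 receptor, at -0.99 ± 0.25, lost its call without E0 replicate 2 (0.101) or E2 replicate 1 (0.11). Stat6 was at 258 and 272 CPM in E2 against 418 and 431 CPM in E0 and fell by 0.68 ± 0.10 (adjusted p = 0.00128). Stat5b fell by 0.60 ± 0.07 (adjusted p = 0.000534), while Stat5a, at 57.4 and 61.3 CPM in E2 against 61.5 and 57.1 CPM in E0, did not pass (log2 fold change 0.00 ± 0.07, adjusted p = 0.993).

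Of the 14 measured genes nearest to the 7 on each side, 3 rose (Sgce, Acaa2 and Taf2), 5 fell and 6 did not pass in E2 against E0, with a median of -0.02. In E1 against CN none rose and 2 fell, Acaa2 and Clec12a. The shares over all genes tested were 17.0% up and 18.5% down in E2, and 9.19% and 8.08% in E1. After Sgce at 3.95, the highest was Acaa2, 133114 bases from Lipg, at 0.38 ± 0.09 (edgeR adjusted p = 0.0162). Clec12a, 67255 bases from Cd69, followed at 0.36 ± 0.15 (edgeR adjusted p = 0.0927). The call of Acaa2 was lost without E0 replicate 1, E0 replicate 2 or E2 replicate 1. Acaa2, an enzyme of fatty acid oxidation, was at 32.2 and 28.3 CPM in E2, 23.9 and 22.7 CPM in E0, 18.4 and 17.0 CPM in E1 and 26.4 and 26.6 CPM in CN. In E1 against CN it fell by 0.58 ± 0.10 (edgeR adjusted p = 0.00369), and the difference of responses was 0.96 ± 0.13 (adjusted p = 0.00147), in the direction of Lipg in both experiments at a smaller size. Clec12a fell by 0.79 ± 0.15 in E1 against CN (adjusted p = 0.00744). Taf2 and Ext1, 261092 and 1399543 bases away on either side of Ccn3, were at 0.33 ± 0.10 (adjusted p = 0.0301) and 0.31 ± 0.23 (adjusted p = 0.324). The call of Taf2 was lost without any 1 of the E2 and E0 libraries. Hdac7, 9923 bases from Vdr, was at -0.03 ± 0.06, and Zfp574, 3852 bases from Pou2f2, at -0.01 ± 0.09. The pseudogene Gmfg-ps, 132835 bases from Peg10, was at -0.02 ± 0.16.

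The genes that fell were Pts beside Plet1 (-0.76 ± 0.09, edgeR adjusted p = 0.000521), Dedd2 beside Pou2f2 (-0.99 ± 0.16, 0.00195), the noncoding 2310001H17Rik beside Cd69 (-1.22 ± 0.09, 4.68e-05), Rpl17 beside Lipg (-0.83 ± 0.10, 0.000424) and Tmem106c beside Vdr (-0.59 ± 0.19, 0.0409). The call of Tmem106c was lost under 9 of the alternatives, among them the DESeq2 test (0.0774) and leaving out any 1 of the E2, E0 and CN libraries (0.0518 to 0.16). Rpl17, Gmfg-ps and the ribosomal protein copy Rpl10-ps3 (-0.52 ± 0.29, 0.197) have near-identical copies elsewhere that counting could split. Within Pou2f2, reads were also assigned to the annotated Mir6537 on the same strand, at 4.50 ± 0.24 (adjusted p = 9.94e-06), and to D930028M14Rik on the opposite strand, at 1.38 ± 0.19 (adjusted p = 0.000992). These overlap the gene, and their reads cannot be told apart from those of Pou2f2. In E1 over CN, D930028M14Rik was at -0.99 ± 0.19 (edgeR adjusted p = 0.00773), where Pou2f2 was at -0.15 ± 0.16.

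**Figure D4:**
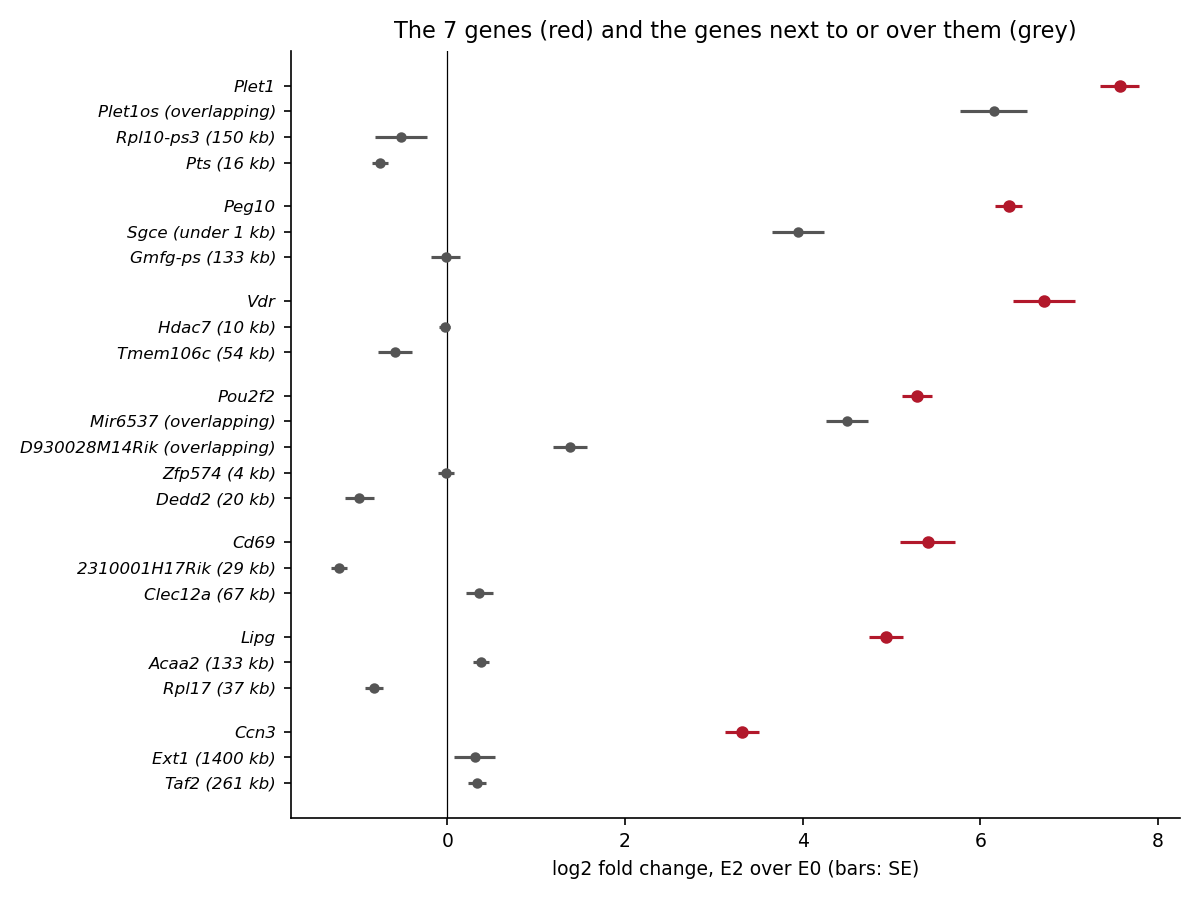
log2 fold change of E2 over E0 with its standard error for the 7 genes (red) and for the genes overlapping them or nearest on each side (grey, with the distance). Sgce, under 1 kb from Peg10, stands at 3.95, the transcripts overlapping Plet1 and Pou2f2 at 1.38 to 6.15, and the other neighbours between -1.22 and 0.38.

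Among the 7 themselves, likeness of profile over the 8 libraries (root mean square difference of centred log2 CPM, smaller being more alike) was greatest between Peg10 and Pou2f2, at 0.57, followed by Lipg and Ccn3, at 0.68, and Plet1 and Peg10, at 0.72. Vdr and Cd69 differed by 0.84, and Vdr and Ccn3 by 2.25, the largest value. These are descriptions over libraries that share their 4 conditions, and carry no test. Against the 11485 genes compared, those most like Plet1 were Csf2 (0.68), Plet1os (0.71) and Ocstamp (0.72). Csf2 encodes GM-CSF, a cytokine that was itself added to E2; it averaged 2.59 ± 1.63 CPM in E2 and had no reads in E0 or E1. Ocstamp, a fusion protein of osteoclasts, was also the gene most like Peg10 (0.35), before Csf2 (0.46) and Aqp3, a water and glycerol channel (0.52). Pou2f2 was closest to Aqp3 (0.40), Lhfpl2 (0.49) and Grm6 (0.50).

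Vdr was closest to Ppm1n (0.51), Il6 (0.55) and Gstt1 (0.64), of which Il6 is an inflammatory cytokine. Cd69 was closest to Lrrc32 (0.49), Edn1 (0.55) and Gstt3 (0.59), of which Lrrc32 carries latent TGF-β at the cell surface and Edn1 is a vasoconstrictor peptide. Lipg was closest to Ccn3 (0.68), Lama5 (0.69) and Car4 (0.69), and Ccn3 to Car4 (0.21), Lama5 (0.53) and Ikzf4 (0.53). Car4, a GPI-anchored carbonic anhydrase, had the closest profile to any of the 7, with 1000.0 ± 120.0 CPM in E2, 94.0 ± 33.5 CPM in E0, 43.8 ± 8.83 CPM in E1 and 309 ± 41.7 CPM in CN. It shares with Ccn3 the order of E2, CN, E0 and E1. With Pearson's correlation in place of this distance, 1 of the 21 genes stayed among the nearest.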

How the data were processed

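RNA of 8 libraries was read as gene counts that the authors deposited in 1 table; reads came from a stranded mRNA kit per the labels' protocols, and STAR, featureCounts and mm10 are named per the submitters' processing notes, with versions and the strand setting not given in the sources used here. A row without a gene name held the column totals (100% of the named counts) and was left out. Of 15917 IDs, 15730 matched a symbol. Counts were fitted with edgeR 4.0.16 in R 4.3.3 (limma 3.58.1) after filterByExpr, which left 15913 genes, and TMM scaling, with the 8 libraries in 1 model of 4 group means and 4 residual degrees of freedom, quasi-likelihood tests and Benjamini-Hochberg adjustment over all tested genes at 0.05. The scripts were tested on simulated data. Depth is given with the results; floors and intervals cover counting error only. The labels do not say whether replicates came from separate animals, but replicates 1 and 2 differ in sex-linked genes in every group; p-values measure the spread between these samples.

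CPM are TMM-scaled; RPKM divide them by union exon length in GENCODE M21 (GRCm38), possibly not the annotation used for counting. Likeness is the root mean square difference of centred log2 CPM (prior count 2). The 7 genes and all lists were chosen with earlier results of these data known. Besides the 7, the text names their 3 nearest genes by profile, up to 3 genes called each way per related list with the largest change, a fixed set of partners, adjacent genes and leading or defining markers; other names are marked as chosen after their values were seen. RefSeq promoters (GRCm38.p6) are printed for 3 of the 7: Peg10, Cd69 and Ccn3 matched none, and chromosome 18, which holds Lipg, was left out. Alternatives were other scalings, no filter, DESeq2 1.42.0, limma-voom, fewer libraries and a replicate block. Leaving out 1 library leaves its group with 1 library of 1 sex. Some genes are not reported here.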

Additional observations from a re-analysis of the deposited data

How the results depend on the processing

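Each of the 7 genes kept its direction in E2 over E0 under every alternative run (other scalings, no filter, DESeq2, limma-voom, the 4 libraries alone, the replicate block and leaving out each library), with log2 fold changes of 7.48 to 7.70 for Plet1, 6.17 to 6.47 for Peg10, 6.60 to 6.82 for Vdr, 5.07 to 5.57 for Pou2f2, 5.10 to 5.76 for Cd69, 4.78 to 5.09 for Lipg and 3.29 to 3.35 for Ccn3. In E1 over CN the ranges were -1.15 to -0.37 for Plet1, -1.01 to -0.68 for Peg10, 2.30 to 3.23 for Vdr, -0.31 to 0.00 for Pou2f2, 1.36 to 2.26 for Cd69, -2.87 to -2.48 for Lipg and -3.21 to -2.65 for Ccn3. Leaving out 1 library gave 3334 to 5929 genes called in E2 versus E0 (3562 without E0 replicate 1, 3567 without E2 replicate 1, 3334 without E2 replicate 2), 1904 to 2484 in E1 versus CN, 2715 to 3768 in the difference, and 71 to 111 related-list genes in E2 versus E0 (71 without E2 replicate 2). With library totals alone, 38.6% of the genes called in E1 versus CN were higher, against 53.2% with TMM, and the median over all genes was -0.11; in the difference 53.4% were higher, against 44.7%. By Pearson's correlation 1 of 21 nearest genes remained, and with a prior count of 0.5, 15 did.

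The labels give same-numbered libraries no shared animal or day, but these do share the level of sex-linked genes. Their deviations from the group means correlated at 0.115 to 0.586 over the 6 pairs of groups, with 0.586 between E2 and E0 and 0.499 between E1 and CN. With the replicate block, 8514 genes were called in E2 versus E0 (5655 without), 5520 in E1 versus CN (2749) and 6821 in the difference (4018), and 134 related-list genes (107). The cause was not tested. At these depths Vdr in E0 and CN rests on 6 to 17 reads, and Plet1 in E0, E1 and CN on 9 to 31.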
